A study of Mus musculus with 16 samples.

Results

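Scn4b, Hcn2, Hcn4, Gja1, Gja5 and Gjc1, 6 genes of cardiac excitation and conduction, were followed through left ventricle and subcutaneous white adipose tissue (scWAT) of mice labelled as lacking HuR in adipocytes and of wild-type mice. Elavl1 encodes HuR, which binds and stabilizes many messenger RNAs. The 6 genes were picked by symbol from the 33641 gene symbols of the deposited tables, 1 table for each of 16 libraries, and all 6 were present. Libraries labelled Adipo-HuR KO (KO below) comprised 4 hearts (mice A25, A29, A30 and A31) and 3 scWAT samples (A24, A26 and A30). Wild-type (WT) libraries comprised 4 hearts (A5, A7, A8 and A14) and 5 scWAT samples (A5, A7, A8, A12 and A14). All mice were of the C57BL/6J strain and 28 weeks old. The promoter that drove the deletion is not given in the sources used here. Within each group every library is a separate animal, and the 4 WT mice and A30 gave both tissues. Values are TPM (transcript abundances), which account for transcript length and add up to a fixed library total, so the genes can be ranked against each other.

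An action potential enters a cardiomyocyte through voltage-gated sodium channels and passes to the next cell through gap junctions. Scn4b encodes a beta subunit that tunes the gating of those sodium channels and is also known from skeletal muscle and neurons. Hcn2 and Hcn4 encode subunits of the hyperpolarization-activated cation channels that carry the pacemaker current. Hcn4 is the leading form of the sinoatrial node, and Hcn2 is also found in working myocardium. The connexins form the gap junctions. Gja1 encodes the main connexin of ventricular working muscle and is also made by fibroblasts and other cells. Gja5 encodes a fast-conducting connexin of atria, His-Purkinje fibres and arterial endothelium, and Gjc1 encodes a connexin of nodal tissue and vascular smooth muscle.

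Promoter sequences are shown for the pacemaker pair and for the connexins Gja1 and Gja5. In KO hearts A25, A30 and A31 the first pair lay below the WT mean and the second above it, and in A29 all lay below it. Gja1 lay 0.06, 1.00 and 0.70 above it in A25, A30 and A31 on the log2(TPM + 1) scale. The median of all tested genes lay 0.29, 0.61 and 0.30 above it, which was more than Gja1 in A25 and less in A30 and A31. The printed sequences are the RefSeq ones of build GRCm38.p6, from 250 bases before to 50 bases after the annotated start, and 5 of the 6 genes had an entry in that set. Both strands were searched for 7 motifs, and capitals mark the matches.
Hcn2 (chr10:79716384-79716683, + strand): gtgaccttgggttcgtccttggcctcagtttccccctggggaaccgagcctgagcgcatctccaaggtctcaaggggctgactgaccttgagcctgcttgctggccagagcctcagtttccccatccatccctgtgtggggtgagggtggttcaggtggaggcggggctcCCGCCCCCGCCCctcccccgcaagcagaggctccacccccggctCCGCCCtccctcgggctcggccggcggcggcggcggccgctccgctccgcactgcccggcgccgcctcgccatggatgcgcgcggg
Hcn4 (chr9:58822699-58822998, + strand): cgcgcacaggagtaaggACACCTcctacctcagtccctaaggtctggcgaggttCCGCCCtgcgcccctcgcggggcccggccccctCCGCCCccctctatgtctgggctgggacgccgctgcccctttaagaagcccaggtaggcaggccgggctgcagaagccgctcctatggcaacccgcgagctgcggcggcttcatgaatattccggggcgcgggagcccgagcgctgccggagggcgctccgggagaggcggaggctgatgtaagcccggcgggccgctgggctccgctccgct
Gja1 (chr10:56377050-56377349, + strand): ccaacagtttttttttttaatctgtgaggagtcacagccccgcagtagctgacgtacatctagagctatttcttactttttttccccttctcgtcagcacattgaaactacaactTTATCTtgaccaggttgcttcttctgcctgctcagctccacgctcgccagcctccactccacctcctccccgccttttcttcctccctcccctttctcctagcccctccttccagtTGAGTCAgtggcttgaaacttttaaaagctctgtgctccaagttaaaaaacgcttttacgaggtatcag
Gja5 (chr3:97032152-97032451, + strand): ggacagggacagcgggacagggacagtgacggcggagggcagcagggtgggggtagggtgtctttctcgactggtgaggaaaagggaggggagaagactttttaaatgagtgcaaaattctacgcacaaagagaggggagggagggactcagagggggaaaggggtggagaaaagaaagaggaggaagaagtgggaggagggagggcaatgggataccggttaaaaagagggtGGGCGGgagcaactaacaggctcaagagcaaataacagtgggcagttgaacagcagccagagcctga
The Hcn2 promoter held 3 matches to the GC box, spelled GGGCGG, at positions -80, -74 and -36 from the start. Hcn4 held 2 of them, at -196 and -163, and Gja5 held 1 at -17. The GC box occurs in 35.9% of 32544 promoters of the same length. Hcn4 also held a match at -233 to the T-box letters AGGTGT, which 13.8% of promoters hold. Gja1 held a match at -19 to the AP-1 letters TGANTCA, found in 7.79% of promoters. It also held a match at -135 to the GATA letters AGATAA, found in 11.2%, and no GC box. The TATA box letters TATAAA occur in 13.6% of promoters, the E-box letters CACGTG in 7.17% and the MEF2 motif in 3.7%. None of the last 3 motifs occurred in these promoters, and no matches overlapped. The G and C content was 72.3% for Hcn2 and 71.7% for Hcn4, against 55.7% for Gja5 and 47.7% for Gja1. The Scn4b promoter held no match to these letters.

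The libraries held the markers of their labelled tissues. The 12 ventricular cardiomyocyte markers summed to between 21082 and 41059.9 TPM in hearts and to at most 232 TPM in scWAT. The 12 adipocyte markers summed to between 68339 and 93752 TPM in scWAT and to at most 2374 TPM in hearts. Adipoq, the adiponectin gene, reached at most 1.72 TPM in hearts. Mitochondrially encoded transcripts took 43.4% to 55.7% of the TPM of KO hearts and 51.9% to 60.6% of WT hearts, and 10.6% to 12.3% in KO scWAT against 6.14% to 14.4% in WT scWAT. Elavl1 was not lower in scWAT labelled KO, at 40.4 ± 3.62 TPM (SD, n = 3) against 26.8 ± 7.39 TPM in WT scWAT (n = 5), or 0.61 higher on the log2(TPM + 1) scale used for all fold changes below (SE 0.22, limma adjusted p = 0.256). Every KO scWAT library was above every WT one, as for 5.23% of all genes tested in scWAT. The level of Elavl1 thus does not show the loss that the label names. The libraries are of whole tissue, and the part of cells other than adipocytes in this level was not tested. KO below means the libraries labelled KO. The heart A29, labelled KO, lay near the WT hearts on many genes: its 10 fibroblast markers summed to 292 TPM, against 2341, 3720.4 and 3143 TPM in the other KO hearts and 241 to 385 TPM in WT hearts. Heart results are given with and without it. Since its choice rests on the data, results without it describe the other 3 KO hearts and are no independent test.

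In heart, none of the 5 members that could be tested passed the threshold between KO and WT libraries, an adjusted p of 0.05 over all genes. Of all 11981 genes tested, 0.0501% passed, all of them higher in KO hearts. At an unadjusted p of 0.05 in limma, 1 member was lower and none higher, where 20.9% of all genes were higher and 3.66% lower. The levels of the sodium channel and pacemaker genes nonetheless lay low in several KO hearts, and the groups did not overlap for Hcn2. Without A29, Scn4b and Hcn2 fell and Gja5 rose, where 38.9% of all genes passed, 34.8% higher and 4.16% lower. The median log2 fold change of all genes tested was 0.26, and that of the 5 tested members was 0.23. Without A29 these medians were 0.39 for all genes and 0.43 for the members. The median of all genes was 0.13 without the WT heart A5 and 0.11 without mitochondrially encoded genes. In A29 itself the median gene stood at -0.17 from the WT mean.

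**Figure D1:**
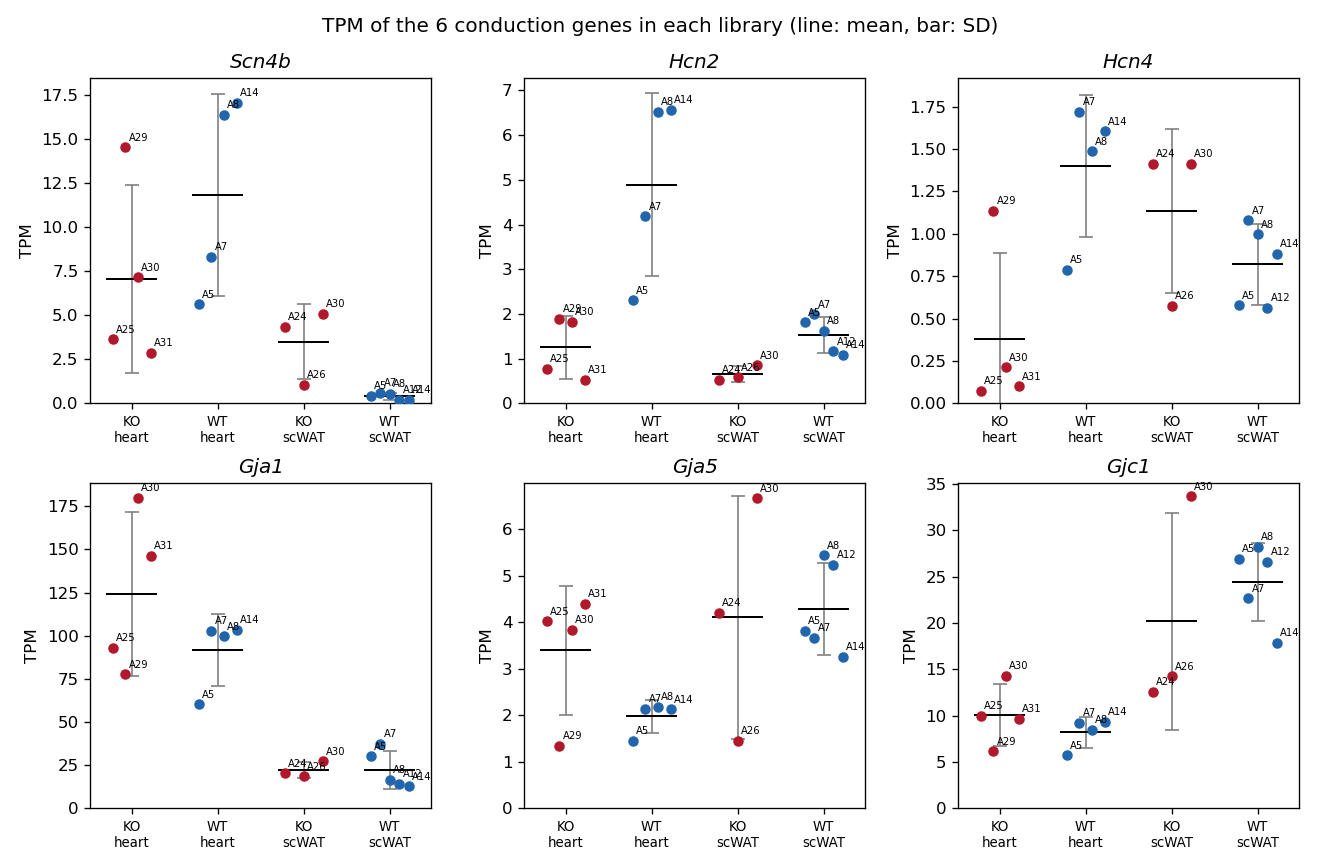
TPM of each gene (vertical axes, from 0, scaled per gene) in every library by genotype and tissue. Points are mice, lines are group means and bars are SD, cut at 0. KO hearts lay below WT hearts for Hcn2, and 3 of 4 did so for Hcn4.

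The sodium channel subunit Scn4b stood at 3.64, 14.5, 7.15 and 2.86 TPM in KO hearts A25, A29, A30 and A31, and at 5.63, 8.31, 16.4 and 17.1 TPM in WT hearts A5, A7, A8 and A14. The groups overlapped, since A29 was close to the upper WT hearts and A5 was below A30. The means were 7.05 ± 5.34 TPM in KO hearts and 11.9 ± 5.74 TPM in WT hearts (SD, n = 4 each). Its log2 fold change was -0.77 (SE 0.46, 95% interval -1.79 to 0.25, limma adjusted p = 0.311). Without A29 it was -1.16 (SE 0.39), with an exact 2-sided permutation p of 0.114. It then passed in limma (limma adjusted p = 0.0407), with a mean of 4.55 ± 2.29 TPM in 3 KO hearts. That call was lost without A29 when no filter on low genes was used (limma adjusted p = 0.113), and the groups still overlapped because A5 stood below A30. Also without A29, it was kept with median-of-ratios scaling (-1.60, limma adjusted p = 0.00143). The same held without mitochondrially encoded genes (-1.48, limma adjusted p = 0.016). These alternatives were chosen after seeing the data.

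Hcn2, the pacemaker channel subunit also found in working muscle, stood at 0.774, 1.89, 1.82 and 0.524 TPM in KO hearts A25, A29, A30 and A31, and at 2.31, 4.18, 6.52 and 6.57 TPM in WT hearts A5, A7, A8 and A14. Every KO heart, A29 included, was below every WT heart. Among all tested genes 4.35% had groups that did not overlap, 3.71% with the KO group above and 0.634% with it below. The KO mean of 1.25 ± 0.705 TPM was 0.256 of the WT mean of 4.89 ± 2.05 TPM (SD, n = 4 each). The log2 fold change of -1.37 (SE 0.33, 95% interval -2.10 to -0.63) did not pass over all genes (limma adjusted p = 0.142), while the exact 2-sided permutation p of the single gene was 0.0286, the smallest that 4 against 4 allows. Relative to the median of all genes the change was -1.62. Without A29 the log2 fold change was -1.504 and passed (SE 0.33, limma adjusted p = 0.00603). The exact 2-sided permutation p was then 0.0571, where 0.0286 was the smallest possible.

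Hcn4, the leading pacemaker subunit of the sinoatrial node, was the lowest of the genes in heart and averaged 0.891 TPM over the 8 hearts, under the minimum of 1 TPM for testing. It stood at 0.074, 1.14, 0.213 and 0.0999 TPM in KO hearts A25, A29, A30 and A31, and at 0.788, 1.72, 1.49 and 1.60 TPM in WT hearts A5, A7, A8 and A14. A29 lay within the WT range, and the other KO hearts lay below it. The means were 0.381 ± 0.508 TPM in KO hearts and 1.40 ± 0.419 TPM in WT hearts (SD, n = 4 each). The mean difference on the log2(TPM + 1) scale was -0.84, which understates the change of so low a gene, with an exact 2-sided permutation p of 0.0571. With no filter on low genes the limma adjusted p was 0.282, and 0.00478 without A29. The share of Hcn4 in the sum of Hcn2 and Hcn4, which does not depend on how a library is scaled, was 8.72%, 37.6%, 10.5% and 16.01% in KO hearts A25, A29, A30 and A31 and 18.6% to 29.2% in WT hearts. Hcn4 was thus the lesser of the pair in all 8 hearts, and its share was lower than in any WT heart in A25, A30 and A31, and higher in A29.

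**Figure D2:**
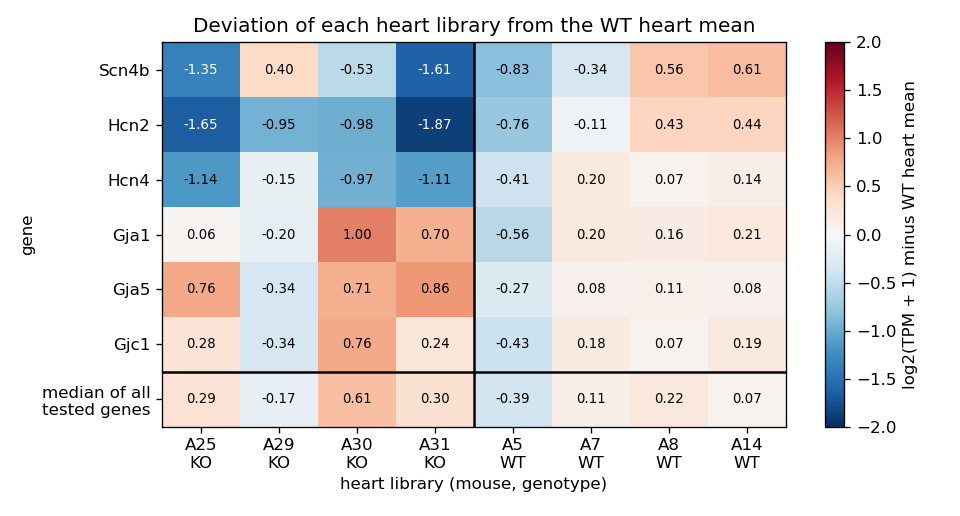
Colour and number give log2(TPM + 1) of each gene (rows) in each heart library (columns) minus the mean of the 4 WT hearts, with the median over all tested genes in the last row. Hcn2 was below the WT mean by 0.95 to 1.87 in KO hearts, and Gja5 was above it by 0.71 to 0.86 in A25, A30 and A31.

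Gja1, the main ventricular connexin, was the most abundant of the 6 genes in every heart. It stood at 93.0, 77.6, 179.8 and 146 TPM in KO hearts A25, A29, A30 and A31, and at 60.3, 103, 99.7 and 103 TPM in WT hearts A5, A7, A8 and A14. A30 and A31 were above every WT heart, A25 and A29 were within the WT range, and A5 was the lowest of all. The means were 124 ± 47.4 TPM in KO hearts and 91.5 ± 20.9 TPM in WT hearts (SD, n = 4 each). The log2 fold change was 0.39 (SE 0.29, 95% interval -0.24 to 1.02, limma adjusted p = 0.405), and 0.13 relative to the median of all genes. Without A29 it was 0.59 (SE 0.26, limma adjusted p = 0.0988). With median-of-ratios scaling it was 0.070 with A29 and 0.079 without it.

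Gja5, the connexin of Purkinje fibres and arterial endothelium, stood at 4.02, 1.34, 3.84 and 4.39 TPM in KO hearts A25, A29, A30 and A31, and at 1.46, 2.14, 2.19 and 2.13 TPM in WT hearts A5, A7, A8 and A14. A25, A30 and A31 were above every WT heart, and A29 was below all of them. The means were 3.40 ± 1.39 TPM in KO hearts and 1.98 ± 0.349 TPM in WT hearts (SD, n = 4 each), a log2 difference of 0.50 (SE 0.29, limma adjusted p = 0.297). Without A29 the mean of the KO hearts was 4.08 ± 0.281 TPM (n = 3), and the rise of 0.78 on the log2 scale passed (SE 0.18; limma adjusted p = 0.00824), or 0.39 relative to the median of all genes. With median-of-ratios scaling, also without A29, it was 0.41 (limma adjusted p = 0.0406).

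Gjc1, the connexin of nodal tissue and vascular smooth muscle, stood at 9.98, 6.14, 14.3 and 9.68 TPM in KO hearts A25, A29, A30 and A31, and at 5.72, 9.23, 8.48 and 9.32 TPM in WT hearts A5, A7, A8 and A14. Its deviations from the WT mean lay beside those of the median gene: 0.28 and 0.29 in A25, -0.34 and -0.17 in A29, 0.76 and 0.61 in A30, and 0.24 and 0.30 in A31. The log2 fold change was 0.23 (SE 0.27, 95% interval -0.36 to 0.83, limma adjusted p = 0.600), and -0.022 relative to the median of all genes. Its sign turned, to values from -0.060 to -0.024, with median-of-ratios scaling and with quantile normalization. Without A29 the log2 fold change was 0.43 (SE 0.23, limma adjusted p = 0.165), and 0.036 relative to the median of all genes.

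**Figure D3:**
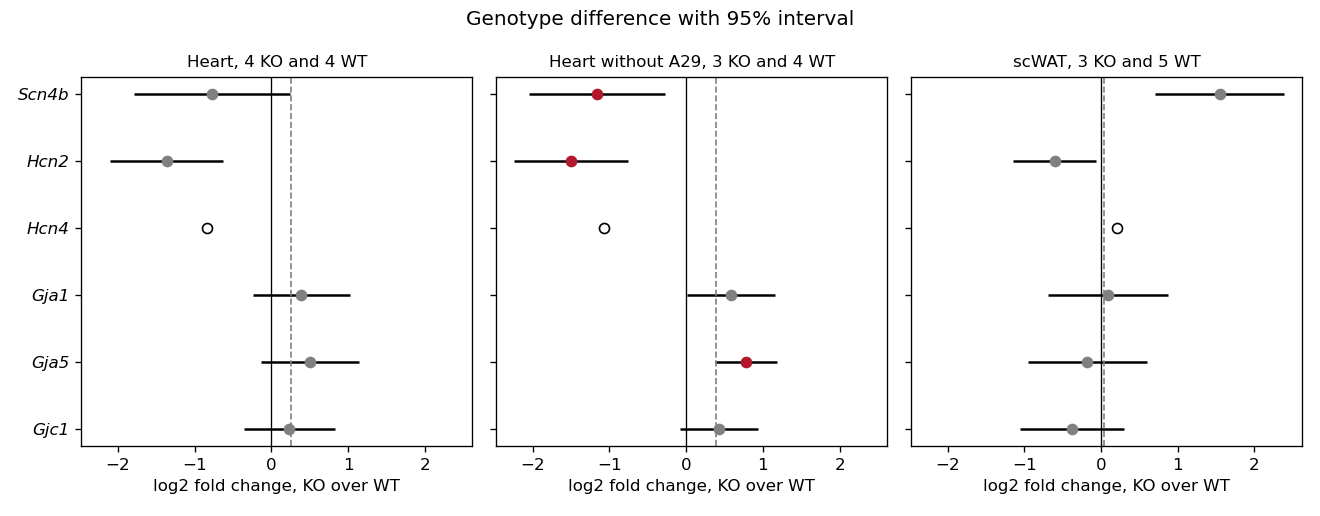
Log2 fold change of KO over WT (horizontal axis) for each gene, with limma's 95% interval, in heart with all 8 libraries, in heart without A29, and in scWAT. Red points passed an adjusted p of 0.05, grey points did not, open circles are mean differences of Hcn4, which was not tested, and dashed lines are the median of all tested genes (0.26, 0.39 and 0.03).

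Gja1 made up most of the 3 connexins in every heart, while their sum ranged widely. Gja1, Gja5 and Gjc1 together reached 107, 85.0, 198 and 160.4 TPM in KO hearts A25, A29, A30 and A31, and 67.4, 114, 110.4 and 115 TPM in WT hearts A5, A7, A8 and A14. Gja1 took 86.9%, 91.2%, 90.8% and 91.2% of that sum in KO hearts A25, A29, A30 and A31, and 89.4% to 90.3% in WT hearts. The Gja5 share was 3.76% in A25, 1.58% in A29, 1.94% in A30 and 2.74% in A31, against 1.85% to 2.16% in WT hearts. A25 and A31 were above the WT range in that share, A30 within it and A29 below it.

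Markers of other cell types moved with these values in heart. Of the 10 fibroblast markers, whose sums are given above, all were called higher without A29, and so were all 10 macrophage markers, where 34.8% of all genes were. The fibroblast sums also served above to set A29 apart, so that count is no independent test. The macrophage markers summed to 1202, 149, 1256 and 1501 TPM in KO hearts A25, A29, A30 and A31, and to 155 to 245 TPM in WT hearts. The 11 Schwann cell and nerve markers summed to 97.5, 19.2, 92.3 and 88.6 TPM in KO hearts and to 18.8 to 34.9 TPM in WT hearts, and the ventricular cardiomyocyte markers to 26579.6, 35659.6, 29346 and 21082 TPM in KO hearts and to 28819.5 to 41059.9 TPM in WT hearts. The 10 arterial endothelial markers summed to 1009, 145, 752 and 1059.7 TPM in KO hearts A25, A29, A30 and A31, and to 108 to 229 TPM in WT hearts, so the hearts with more Gja5 had the higher sums. Without A29, 4 of these 10 were called higher, where 34.8% of all genes were. Their median log2 fold change was then 0.25, below the 0.39 of all genes, so the sums do not speak for the list as a whole. Sox17, an arterial transcription factor of that list, stood at 11.1, 5.37, 9.85 and 6.00 TPM in KO hearts and at 3.24 to 14.7 TPM in WT hearts. The atrial markers Myl7 and Sln reached at most 1.33 and 0.138 TPM in KO hearts and 0.451 and 0.0410 TPM in WT hearts. Myl4, also an atrial marker, stood at 4.86, 1.25, 3.87 and 4.17 TPM in KO hearts A25, A29, A30 and A31, and at 0.934 to 1.85 TPM in WT hearts. Bmp10, another, stood at 0.417, 0.0262, 0.366 and 0.468 TPM in the same KO hearts and at most at 0.0432 TPM in WT hearts. The atrial list of 10 genes, which includes Nppa, summed to 472 TPM in A29 and up to 8017 TPM in the other KO hearts, against 417 to 783 TPM in WT hearts. Without A29, 6 of its 7 tested genes were called higher and 1 lower, where 34.8% of all genes were higher and 4.16% lower. The part of these cell types in the results was not tested, and in whole tissue fewer cells of a type and less RNA per cell cannot be told apart.

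Of 79 other genes of conduction in 5 lists, 40 could be tested in heart. None was called higher or lower (at an unadjusted p of 0.05 in limma, 5 were higher and 6 lower, where 20.9% of all genes were higher and 3.66% lower), with a median log2 fold change of -0.05 against 0.26 for all genes. Without A29, 7 were higher and 6 lower, where 34.8% of all genes were higher and 4.16% lower. Among sodium channel subunits and partners, Scn4a, the pore-forming subunit best known from skeletal muscle, stood at 0.664, 4.63, 6.78 and 0.766 TPM in KO hearts and at 3.14 to 15.5 TPM in WT hearts (limma adjusted p = 0.149, and 0.0352 without A29). Scn7a, an atypical sodium channel, stood at 7.63, 2.80, 10.2 and 10.8 TPM in KO hearts and at 2.16 to 3.99 TPM in WT hearts (limma adjusted p = 0.151, and 0.00152 without A29).

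Of the 20 other connexins and pannexins, 3 could be tested in heart. Panx1, a membrane channel of the pannexin family, stood at 17.4, 0.442, 13.97 and 15.4 TPM in KO hearts A25, A29, A30 and A31, and at 0.234 to 1.02 TPM in WT hearts (log2 fold change 2.57 with SE 0.69, limma adjusted p = 0.142, and 9.07e-06 without A29). Gja4, an endothelial connexin, stood at 4.54 to 10.3 TPM in KO hearts and 3.33 to 7.25 TPM in WT hearts (limma adjusted p = 0.243, and 0.0312 without A29). Gja3, best known as a lens connexin, stood at 3.10, 6.25, 3.77 and 3.47 TPM in KO hearts and 5.05 to 6.48 TPM in WT hearts (limma adjusted p = 0.284, and 0.0278 without A29). Panx1 and Gja4 were therefore high, and Gja3 low, in the same 3 KO hearts.

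All 13 intercalated disc partners were tested in heart, with a median log2 fold change of -0.06. Ctnna3, the alpha-T-catenin of the disc, stood at 1.62, 7.84, 2.49 and 1.36 TPM in KO hearts A25, A29, A30 and A31, and at 6.71 to 12.7 TPM in WT hearts (log2 fold change -1.56 with SE 0.40, limma adjusted p = 0.142, and 0.000295 without A29). Xirp2, an actin-binding protein of the disc, stood at 296, 63.8, 272 and 276 TPM in KO hearts and at 63.3 to 72.0 TPM in WT hearts (log2 fold change 1.4995 with SE 0.42, limma adjusted p = 0.142, and 7.06e-06 without A29). Jup, which encodes plakoglobin, stood at 18.1 to 84.5 TPM in KO hearts and 24.7 to 71.5 TPM in WT hearts and did not pass with or without A29. Of the conduction system transcription factors and markers, Id2, an inhibitor of helix-loop-helix factors known from the ventricular conduction system, stood at 12.3, 2.68, 16.95 and 20.3 TPM in KO hearts and at 2.27 to 4.34 TPM in WT hearts (limma adjusted p = 0.149, and 0.000344 without A29). Tbx5, a T-box factor that activates conduction genes, stood at 1.95, 5.46, 4.59 and 2.10 TPM in KO hearts and at 4.26 to 8.05 TPM in WT hearts (limma adjusted p = 0.174, and 0.025 without A29). Prox1 stood at 1.82 to 7.55 TPM in KO hearts and 4.47 to 10.6 TPM in WT hearts and did not pass either way.

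Some other genes followed the members closely across the 8 hearts. Likeness was measured as the root mean square difference of log2(TPM + 1), centred on each gene's mean, among 7189 genes of at least 5 TPM. Nearest to Scn4b were Ucp3, a mitochondrial carrier, with a difference of 0.24, Dgat2, an enzyme of triglyceride synthesis, with 0.27, and Aldh4a1 with 0.28, against a root mean square of 0.80 for Scn4b itself. Nearest to Hcn2 were Gstm1, a glutathione transferase, with 0.17, Cobll1 with 0.21 and Kcnip2, a subunit of the transient outward potassium channel, with 0.21, against 0.82 for Hcn2. Hcn4, with a root mean square of 0.54, was nearest to Grb14, Acadm and Itga6, with 0.10, 0.10 and 0.11. Gja1 was nearest to Lama4 with 0.09, Gja5 to Tmod3 with 0.06 and Gjc1 to Grk6 with 0.06, where their own root mean squares were 0.46, 0.44 and 0.35. These libraries share the shifts of all genes, so the values describe likeness alone.

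In scWAT, no member passed between KO and WT libraries, where 0.0219% of 13682 tested genes did (0.0146% higher and 0.00731% lower), and 5 members could be tested. At an unadjusted p of 0.05 in limma, 1 was higher and 1 lower, where 8.11% of all genes were higher and 7.52% lower. Scn4b stood above and Hcn2 below the WT range in every KO library, and the other 4 genes overlapped. Among all genes 10.3% had groups that did not overlap, 5.23% with the KO group above and 5.06% with it below. The library A26, labelled KO, stood apart. Its 8 B cell markers summed to 527.5 TPM and its 8 T cell markers to 625 TPM, against at most 22.9 and 20.2 TPM in the other scWAT libraries. Its fibroblast markers summed to 1190.2 TPM, against 3519 TPM or more in the others. The part of these cells in its values was not tested. The median log2 fold change was -0.18 for the tested members and 0.03 for all genes.

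Scn4b was under 1 TPM in every WT scWAT library. It stood at 4.33, 1.07 and 5.09 TPM in KO scWAT A24, A26 and A30, and at 0.446, 0.613, 0.555, 0.188 and 0.205 TPM in WT scWAT A5, A7, A8, A12 and A14. The log2 fold change was 1.55 (SE 0.37, 95% interval 0.71 to 2.39, limma adjusted p = 0.216), with an exact 2-sided permutation p of 0.0179, the smallest that 3 against 5 allows. Without A26 it was 2.04 (limma adjusted p = 0.0064), where 124 of 13430 genes were called higher and 6 lower. A26 held the lowest Scn4b of the KO libraries, so that result is no independent test. Scn4b averaged 1.56 TPM over the 8 scWAT libraries and reached the minimum of 1 TPM only through its KO values. With no filter the limma adjusted p over all 8 was 0.321. The log2 fold change was 1.303 (SE 0.54, limma adjusted p = 0.609) among the 5 libraries whose deposited names carry no genotype. Of these, 2 are labelled KO and 3 WT. The 14 skeletal muscle markers, whose source tissue also makes Scn4b, summed to 5402, 407 and 10748 TPM in KO scWAT A24, A26 and A30, and to 100.5, 1142, 140.03, 68.0 and 59.2 TPM in WT scWAT A5, A7, A8, A12 and A14. Both libraries with the most Scn4b had the highest marker sums, but A26 held more Scn4b than A7 at a lower marker sum. Scn4a stood at 6.18, 0.518 and 5.26 TPM in KO scWAT and at most at 0.191 TPM in WT scWAT. The part of muscle tissue in the Scn4b difference was not tested.

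**Figure D4:**
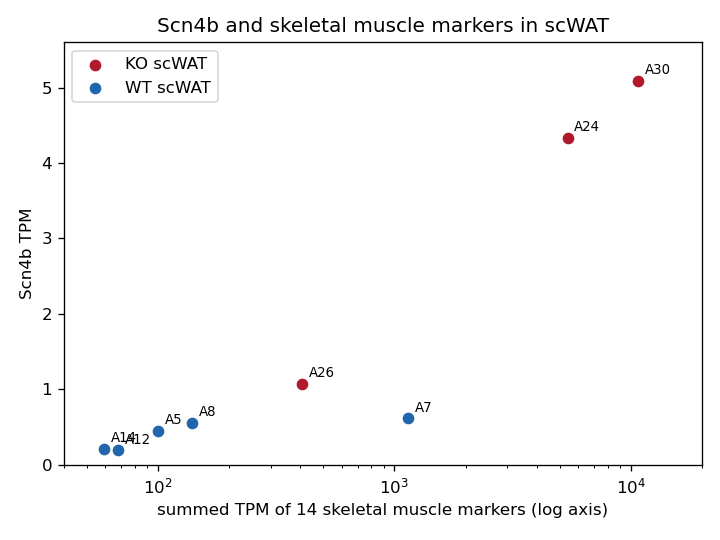
Scn4b TPM (vertical axis) against the summed TPM of 14 skeletal muscle markers (horizontal log axis) in the 8 scWAT libraries, 1 point per mouse. A24 and A30 stand at 4.33 and 5.09 TPM of Scn4b with marker sums of 5402 and 10748 TPM, and the other 6 libraries hold at most 1.07 TPM.

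Hcn2 stood at 0.526, 0.585 and 0.853 TPM in KO scWAT A24, A26 and A30, and at 1.81, 1.99, 1.62, 1.17 and 1.08 TPM in WT scWAT A5, A7, A8, A12 and A14. All KO libraries were below all WT libraries, as in heart, with means of 0.655 ± 0.174 TPM (SD, n = 3) and 1.53 ± 0.397 TPM (n = 5). The log2 fold change was -0.61 (SE 0.24, 95% interval -1.15 to -0.06, limma adjusted p = 0.286, exact 2-sided permutation p = 0.0357). Hcn4 averaged 0.938 TPM over the 8 libraries and was not tested. It stood at 1.41, 0.577 and 1.41 TPM in KO scWAT and at 0.562 to 1.08 TPM in WT scWAT. Its share in the sum of Hcn2 and Hcn4 was 72.9%, 49.7% and 62.4% in KO scWAT A24, A26 and A30, above the 24.2% to 45.0% of WT scWAT, where in KO hearts 3 of 4 shares lay below those of WT hearts.

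The connexins of scWAT overlapped between genotypes. Gja1 stood at 20.3, 18.5 and 27.3 TPM in KO scWAT and at 12.9 to 37.5 TPM in WT scWAT (log2 fold change 0.09, 95% interval -0.69 to 0.87, limma adjusted p = 0.909). Gja5 stood at 4.205, 1.45 and 6.66 TPM in KO scWAT A24, A26 and A30 and at 3.26 to 5.43 TPM in WT scWAT (log2 fold change -0.18, 95% interval -0.95 to 0.60, limma adjusted p = 0.811). Without A26 its sign turned, to 0.28. Gjc1 stood at 12.6, 14.2 and 33.6 TPM in KO scWAT A24, A26 and A30 and at 17.8 to 28.2 TPM in WT scWAT (log2 fold change -0.38, 95% interval -1.06 to 0.30, limma adjusted p = 0.523). Without A30 it was -0.80 (limma adjusted p = 0.142) and without A24 -0.13. A30 was the highest and A24 or A26 the lowest of all scWAT libraries for both Gja5 and Gjc1, so the KO group held both extremes. The intervals leave room for differences in either direction.

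Among the 34 tested genes of the 5 other lists none passed in scWAT (at an unadjusted p of 0.05 in limma, 5 were higher and 3 lower, where 8.11% of all genes were higher and 7.52% lower). Fgf13, a fibroblast growth factor homologue that binds sodium channels inside the cell, stood at 11.8, 8.96 and 22.3 TPM in KO scWAT A24, A26 and A30 and at 25.9 to 95.2 TPM in WT scWAT (log2 fold change -1.97 with SE 0.45, limma adjusted p = 0.216). Panx1 stood at 2.72 to 16.4 TPM in KO scWAT and 2.28 to 4.04 TPM in WT scWAT. Nrap, an actin-anchoring protein of striated muscle, stood at 14.3, 0.681 and 18.9 TPM in KO scWAT A24, A26 and A30 and at most at 0.676 TPM in WT scWAT (limma adjusted p = 0.216). Gja4 differed by a log2 fold change of 0.01 (limma adjusted p = 0.984). Id2 stood at 21.5, 66.6 and 15.1 TPM in KO scWAT A24, A26 and A30 and at 7.95 to 20.3 TPM in WT scWAT, and Hopx at 5.49 to 13.0 TPM and 4.58 to 11.6 TPM (limma adjusted p = 0.302 and 0.622).

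A fit to all 16 libraries asked if the effect of genotype was the same in heart and scWAT. None of 5 tested members passed, where 0.0607% of 11536 genes did, 0.00867% higher and 0.052% lower. At an unadjusted p of 0.05 in limma, 1 member was lower, where 17% of all genes were higher and 3.42% lower. For Scn4b the log2 fold change in heart minus that in scWAT was -2.32 (SE 0.62, 95% interval -3.63 to -1.01, limma adjusted p = 0.0898). It passed without the heart A29 (limma adjusted p = 0.00275), where 2599 of 11624 genes were called higher and 264 lower. It also passed without the scWAT library A26 (limma adjusted p = 0.031), where 5 of 11502 genes were called higher and 89 lower. For Hcn2 the difference was -0.76 (SE 0.39, limma adjusted p = 0.288), for Gja1 0.30, for Gja5 0.68 and for Gjc1 0.61, all with an adjusted p above that of Scn4b.

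The 6 genes had different orders in the tissues. In WT hearts the mean levels ran from Gja1 (91.5 TPM) through Scn4b (11.9 TPM), Gjc1 (8.19 TPM), Hcn2 (4.89 TPM) and Gja5 (1.98 TPM) to Hcn4 (1.40 TPM). The ranges of Scn4b and Gjc1, of Gjc1 and Hcn2, and of Gja5 and Hcn4 overlapped. In KO hearts Gjc1 came before Scn4b and Gja5 before Hcn2, and Gja5 was above Hcn2 in 3 of 4 KO hearts and in none of the 4 WT hearts. In WT scWAT the order was Gjc1 (24.4 TPM), Gja1 (22.3 TPM), Gja5 (4.28 TPM), Hcn2 (1.53 TPM), Hcn4 (0.820 TPM) and Scn4b (0.401 TPM), with overlap between Gjc1 and Gja1 and between Hcn4 and Scn4b. In KO scWAT Scn4b came after Gja5 at 3.498 TPM and Hcn2 last at 0.655 TPM.

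Between tissues of WT mice 5 of 6 members passed, 3 higher and 2 lower in heart, where 86.6% of 13093 genes did, 8.12% higher and 78.5% lower. The same 5 had groups that did not overlap, where 80% of all genes did, 6.74% above and 73.2% below in heart. Neither total is far from that of all genes. Scn4b, at 11.9 ± 5.74 TPM in WT heart (SD, n = 4) and 0.401 ± 0.197 TPM in WT scWAT (n = 5), differed by 3.09 on the log2 scale (SE 0.28, limma adjusted p = 5.59e-07). Gja1 was higher in heart by 2.08 (SE 0.31, limma adjusted p = 3.35e-05) and Hcn2 by 1.15 (SE 0.25, limma adjusted p = 0.000817). Hcn4 did not pass (log2 fold change 0.39 with SE 0.19, limma adjusted p = 0.0693). Gjc1 was lower in heart by TPM, at -1.47 (SE 0.19, limma adjusted p = 1.07e-05), and so was Gja5, with -0.82 (SE 0.18, limma adjusted p = 0.00108). The median of all genes was -1.27, beside a mitochondrially encoded share of 51.9% to 60.6% in WT heart and 6.14% to 14.4% in WT scWAT. Relative to that median Gjc1 was at -0.21 and Gja5 at 0.45. With median-of-ratios scaling Gjc1 no longer passed and the sign of Gja5 turned to 0.26, while Hcn4 passed with 1.15. Over all genes this scaling called 4272 higher and 4413 lower in heart, quantile normalization 4259 and 4527, and TPM without mitochondrially encoded genes 2725 and 6547, against 1063 and 10279 as deposited. Without those genes Gja5 was at -0.078 and no longer passed. Hcn4 also passed without the WT heart A5 (0.53).

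**Figure D5:**
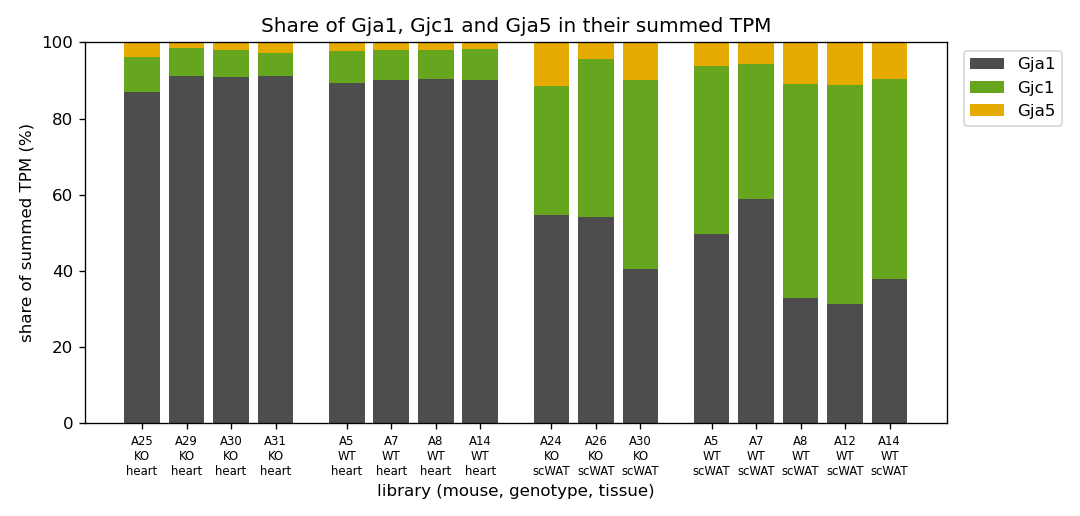
Share of Gja1, Gjc1 and Gja5 (vertical axis, percent) in their summed TPM in each of the 16 libraries. Gja1 takes 86.9% to 91.2% in all hearts and 31.2% to 58.8% in scWAT, where Gjc1 takes 33.9% to 57.5%.

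Within a library the ratios of the connexins do not depend on scaling. Gja1 stood 9.32 to 15.1 times above Gjc1 in KO hearts and 10.5 to 11.8 times above it in WT hearts. In scWAT the same ratio was 0.812 to 1.62 in KO libraries and 0.542 to 1.66 in WT libraries. Gja5 made up 4.25% to 11.3% of the 3 connexins in KO scWAT and 5.75% to 11.3% in WT scWAT, against 1.58% to 3.76% in KO hearts. The 3 connexins thus had a different mix in each tissue, and the mix overlapped between genotypes in both.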

How the data were processed

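RNA was sequenced from left ventricle and scWAT of 11 mice, 5 of which gave both tissues. Per the labels' protocols, frozen tissue was extracted with Trizol and Illumina TruSeq libraries were made from total RNA. Per the file headers, the deposited values are TPM, 1 table per library. Neither the aligner and quantifier nor the genome build is given in the sources used here. Since TPM holds no read number, depth is unknown and counting error cannot be given. Each library sums to 1e+06, so a large transcript class lowers all others.

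Groups and mouse numbers came from the labels. TPM was analysed as log2(TPM + 1), which understates the change of low genes. Genes averaging 1 TPM or more in a fit entered it, or in each tissue for the difference of the genotype effect between tissues. Fits were made with limma 3.58.1 in R 4.3.3 (lmFit, eBayes with trend). P-values were adjusted by Benjamini-Hochberg over all genes tested, with a threshold of 0.05, and tests were 2-sided. For single members, exact permutation tests used the absolute difference of mean log2(TPM + 1). No fit imputed or dropped a library unless named. The fit was tested on simulated data with 200 changed genes.

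The 6 genes, the lists and the alternatives were chosen with earlier results of these data known. From each list up to 3 genes in heart and 2 in scWAT with the smallest p and at least 5 TPM in the higher group were named, and up to 3 genes per member by likeness, without predicted, pseudo- and sex-linked genes. Some genes that this rule names are not reported here. Marker genes of other cell types were named after their values were seen. Alternatives were pseudocounts, filters, scalings, weights, a shared fit, leaving out each library, a replicate block by mouse, and, since some deposited scWAT tables carry a genotype in their names and others do not, a fit within those that do not. Mice pair 4 hearts with 4 scWAT samples of WT mice: deviations of the same mouse from the tissue means correlated across 11536 genes with r of 0.03 to 0.15. Genes with near-identical copies were not separated.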

Additional observations from a re-analysis of the deposited data

Results flagged for a closer look

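Among 21 groups of 4 or 5 libraries examined for a library far from the rest, 3 were found, where chance gives about 1 in 20 groups. Hcn4 in the KO heart A29 stood at 1.14 TPM, apart from the other KO hearts at 0.074, 0.213 and 0.0999 TPM, with a gap of 0.869 of the group's range. Gja1 in the WT heart A5 stood at 60.3 TPM, below the 99.7 to 103 TPM of the other WT hearts, with a gap of 0.918 of the range. Gja5 in the same WT heart stood at 1.46 TPM, below 2.13 to 2.19 TPM, also with a gap of 0.918. All 6 genes lay below the WT mean in A5, where the median of all tested genes lay 0.39 below it on the log2 scale and mitochondrially encoded transcripts took 60.6% of TPM, the highest share of the 8 hearts. The part of that share in the low values was not tested.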

How the results depend on the processing

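The number of members past the threshold was 0 in heart, 0 in scWAT and 5 between WT tissues. It was 0 for the difference of the genotype effect between tissues, called the difference below. With array weights the number became 3 in heart, 1 in scWAT and 2 for the difference, and with 1 fit over all 16 libraries it was 1 in heart. A filter of 5 TPM left 3 between WT tissues, since fewer members could be tested. Leaving out each library in turn gave 0 to 3 in heart (3 without A29), 0 to 1 in scWAT (1 without A26), 0 to 1 for the difference (1 without A29 or A26) and 5 to 6 between tissues (6 without the WT heart A5). Without A29, 3 passed with median-of-ratios scaling, 3 with no filter and 4 without mitochondrially encoded genes (alternatives chosen after seeing the data). With the mouse as a replicate block the paired fit of 4 mice called 5 members between tissues (Scn4b at 3.03), and the block changed no other call. The log2 fold change of Gjc1 in heart turned to -0.060 with median-of-ratios scaling, to -0.024 with quantile normalization and to -0.038 with that scaling and without A29. Gja5 in scWAT turned to 0.22 with array weights and ranged from -0.54 to 0.28 over left-out libraries (0.28 without A26), and Gja1 from -0.069 to 0.30 (negative without A12, A14 or A30). Gja5 between WT tissues turned to 0.26 and 0.30 with median-of-ratios scaling and quantile normalization. For Gja1, the genotype effect in heart minus that in scWAT turned to -0.014 with quantile normalization and -0.033 with array weights. Gja1 between WT tissues kept its sign in all 19 settings, from 1.88 to 3.49. The cause of the turned signs was not tested. Leaving out 1 library also moved values that were not called: Scn4b in heart to -0.49 without A31, Gja1 in heart to 0.20 without A5 and 0.19 without A30, and Gjc1 in heart to 0.089 and 0.058 without them. Over all genes, heart had 6 genes called higher and 0 lower, 2 and 0 with a filter of 5 TPM, 4203 and 502 without A29, 748 and 98 with 1 fit over all libraries, and 5160 and 2725 with array weights. In scWAT there were 2 and 1, with 0 and 0 among the 5 tables named without a genotype, 124 and 6 without A26, 41 and 34 without A30, 66 and 14 with array weights, and 104 and 75 with 1 fit over all libraries. Depth is unknown, so the counting error of the low values of Hcn4, Hcn2 and, in scWAT, Scn4b cannot be given.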
